A study of Mus musculus with 6 samples.

Results

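Transcripts of haemoglobin and of other red cell genes were measured in neutrophils sorted from the peripheral blood (PB) of mice with ligature-induced periodontitis (LIP) and of unligated control mice (Ctrl). The 8 genes described were picked by name from the deposited table of 29097 genes: the adult alpha globin genes Hba-a1 and Hba-a2, the adult beta globin genes Hbb-bs and Hbb-bt, the beta globin pseudogene Hbb-bh3, and Alas2, Bpgm and Slc4a1. They were chosen because they were lower in LIP than in Ctrl, so that their levels and fold changes are given as a description, without a test. The mice were 8-week-old male wild type C57BL/6 animals, either with silk ligatures around the second molars of both jaws for 14 d (LIP, labelled Lig) or without ligature for the same 14 d. Red cells in the blood of both groups were lysed before CD45+CD11b+Ly6G+ cells were sorted, and each of the 3 libraries per group came from the pooled neutrophils of 5 mice. The libraries were made by Smart-seq2, which primes on the poly(A) tail, copies full-length mRNA and amplifies it by PCR without molecular identifiers, and they held 52186555 to 57262379 counts on genes.

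Haemoglobin is a tetramer of alpha and beta globin chains, each holding a haem group. It is made by erythroblasts in the bone marrow and by reticulocytes, the young red cells that have lost their nucleus but still carry mRNA in the blood. Late reticulocytes keep globin mRNA in large amounts while many other transcripts decay. Alas2 is the erythroid form of the first enzyme of haem synthesis. Bpgm makes the bisphosphoglycerate that lowers the affinity of haemoglobin for oxygen. Slc4a1 encodes band 3, the anion exchanger that anchors the red cell skeleton to the membrane. Neutrophils are not known for making haemoglobin, and PB is rich in red cells.

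The adult globin genes lie in clusters whose copies are nearly alike in sequence. Hba-a1 (ENSMUSG00000069919, chr11:32283511-32284465, plus strand) and Hba-a2 (ENSMUSG00000069917, chr11:32296489-32297298, plus strand) had coding sequences of 429 bases in GENCODE M21 (GRCm38) that differed at 1 position. Hbb-bs (ENSMUSG00000052305, chr7:103826534-103827928, minus strand) and Hbb-bt (ENSMUSG00000073940, chr7:103812524-103813996, minus strand) had coding sequences of 444 bases that also differed at 1 position. These pieces of 41 bases of coding sequence are shown because they hold the only coding difference of each pair, which is in capitals:
Hba-a1, chr11:32284323-32284363, plus strand: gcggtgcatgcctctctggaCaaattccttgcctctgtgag
Hba-a2, chr11:32297140-32297180, plus strand: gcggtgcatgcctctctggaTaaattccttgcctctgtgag
Hbb-bs, chr7:103826672-103826712, minus strand: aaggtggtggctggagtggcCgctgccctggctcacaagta
Hbb-bt, chr7:103812663-103812703, minus strand: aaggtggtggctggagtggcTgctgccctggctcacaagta
Counted from the A of the start codon, the difference was C381T between Hba-a1 and Hba-a2 and C417T between Hbb-bs and Hbb-bt, at the last base of codon 127 and codon 139. Of the 550 windows of 150 bases (the read length) in the Hba-a1 transcript, 266 (48.4%) occurred unchanged in Hba-a2. Of the 479 such windows in Hbb-bs, 281 (58.7%) occurred unchanged in Hbb-bt. Reads from such windows belong to either copy alike, so the division of counts within each pair is uncertain. A sum over a pair does not depend on that division, but it would lose reads if those matching both copies were left out of the counting, which the sources used here do not say. No window of Hba-a1 occurred in Hbb-bs, and none of the 117 windows of Hbb-bh3 (ENSMUSG00000083216, chr7:103832628-103833723, minus strand) occurred in Hbb-bs or Hbb-bt.

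The promoters of 6 of the 8 genes were in the RefSeq table used (GRCm38.p6). They are shown because these genes were lower together in LIP, from 120 bases before the annotated start to 20 bases after it. Capitals mark the TATA box (letters TATAA), the CCAAT box, the CACCC box and the GATA motif, the last written as AGATAA with T allowed for its first letter and G for its last. Both strands were searched, and adjoining matches run together:
Hba-a1, chr11:32283552-32283691, plus strand: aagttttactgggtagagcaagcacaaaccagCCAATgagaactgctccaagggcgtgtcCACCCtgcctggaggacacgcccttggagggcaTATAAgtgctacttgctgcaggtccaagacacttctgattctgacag
Hba-a2, chr11:32296372-32296511, plus strand: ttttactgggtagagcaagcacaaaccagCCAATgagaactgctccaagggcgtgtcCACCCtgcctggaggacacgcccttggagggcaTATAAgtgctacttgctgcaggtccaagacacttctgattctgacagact
Hbb-bs, chr7:103827909-103828048, minus strand: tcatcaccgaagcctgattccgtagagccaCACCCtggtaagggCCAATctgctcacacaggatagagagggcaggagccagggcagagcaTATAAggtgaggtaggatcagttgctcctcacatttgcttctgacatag
Hbb-bt, chr7:103813904-103814043, minus strand: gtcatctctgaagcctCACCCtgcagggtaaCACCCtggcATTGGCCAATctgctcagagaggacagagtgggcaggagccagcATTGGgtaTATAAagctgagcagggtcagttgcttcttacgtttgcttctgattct
Alas2, chrX:150547297-150547436, plus strand: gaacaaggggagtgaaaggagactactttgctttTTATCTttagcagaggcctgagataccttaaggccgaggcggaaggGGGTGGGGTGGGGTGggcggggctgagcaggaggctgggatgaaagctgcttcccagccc
Bpgm, chr6:34476236-34476375, plus strand: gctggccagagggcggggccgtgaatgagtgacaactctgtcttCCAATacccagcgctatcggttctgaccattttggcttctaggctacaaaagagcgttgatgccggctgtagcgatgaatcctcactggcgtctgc
TATAA was present in the promoters of the 4 adult globin genes, between bases -27 and -30, and in 13% of 32851 promoter windows of the same 140 bases. CCAAT was found in 5 of the 6 promoters and in 23.1% of all windows, and CACCC in 5 of the 6 and in 35.1%. A GATA motif was found in the Alas2 promoter, on the minus strand at base -86, and in 14.5% of all windows. The alpha globin pieces were identical in 137 of 143 aligned columns, and the beta globin pieces in 105 of 142. A match says only that the letters are present in this window.

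The 8 genes together took 14.69%, 15.17% and 15.08% of all counts in the 3 Ctrl libraries, against 1.622%, 1.559% and 1.586% in the 3 LIP libraries. The means were 14.98% ± 0.254 (SD, n = 3) in Ctrl and 1.589% ± 0.0315 in LIP, so the gap was far wider than the spread within either group. Nearly all of this was adult globin, with 14.85% ± 0.237 of counts in Ctrl and 1.578% ± 0.0318 in LIP. The alpha pair took 9.493% ± 0.127 in Ctrl and 1.064% ± 0.0465 in LIP, and the beta pair took 5.356% ± 0.362 and 0.5141% ± 0.0177. Alas2, Bpgm, Slc4a1 and Hbb-bh3 together took 0.1327% ± 0.0206 in Ctrl and 0.01108% ± 0.000669 in LIP. By counts, Hba-a1 was the first, Hba-a2 the second and Hbb-bs the third gene of every Ctrl library, whereas Hba-a1 ranked 17, 17 and 18 in the LIP libraries. In these bulk libraries, fewer red cells or reticulocytes in the sorted pool and less of these transcripts per cell cannot be told apart.

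**Figure D1:**
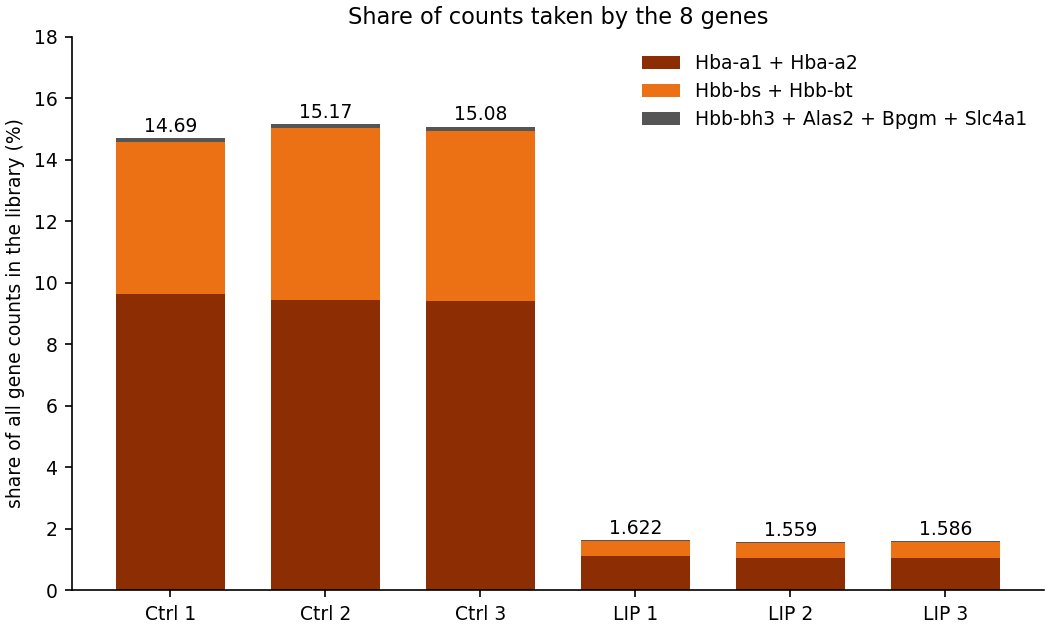
Share of all gene counts (%) taken by the 8 genes in each of the 6 libraries, stacked by alpha globin genes, beta globin genes and the other 4 genes, with the total printed above each bar. The 3 Ctrl bars reach 14.69 to 15.17% and the 3 LIP bars 1.559 to 1.622%, and the other 4 genes are barely visible.

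Among the alpha chain genes, Hba-a1 stood at 66227, 64186 and 55539 FPKM (fragments per kilobase of gene length and per library total) in Ctrl and at 7409, 7122 and 7015 FPKM in LIP. Hba-a2 stood at 53009, 52229 and 62384 FPKM in Ctrl and at 6581, 5819 and 5924 FPKM in LIP. For both genes every LIP library lay below every Ctrl library. Fitted with edgeR on the counts, with TMM normalization, the log2 fold change in LIP was -2.80 (SE 0.0702) for Hba-a1 and -2.89 (SE 0.0845) for Hba-a2, that is 6.97-fold and 7.39-fold lower. Ctrl 3 had the lowest Hba-a1 and the highest Hba-a2 of its group, and it was the one library in which Hba-a2 exceeded Hba-a1. The ratio of Hba-a1 to Hba-a2 was 1.25, 1.23 and 0.89 in Ctrl and 1.13, 1.22 and 1.18 in LIP, so the groups overlapped, and the mean log2 difference of 0.09 turned to -0.07 without Ctrl 3.

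Among the beta chain genes, Hbb-bs stood at 42418, 43845 and 44809 FPKM in Ctrl and at 4238, 4521 and 4441 FPKM in LIP. Hbb-bt stood at 18632, 25337 and 23739 FPKM in Ctrl and at 1925, 1979 and 2103 FPKM in LIP. Again no LIP library reached any Ctrl library. The log2 fold change was -3.01 (SE 0.0570) for Hbb-bs and -3.19 (SE 0.116) for Hbb-bt, or 8.03-fold and 9.12-fold lower. Within Ctrl, Hbb-bs varied least of the 8 genes (coefficient of variation of the normalised counts, scaled to library size (CPM) 4.04%), while Hbb-bt varied by 17.0% and was lowest in Ctrl 1. The ratio of Hbb-bs to Hbb-bt was 2.28, 1.73 and 1.89 in Ctrl and 2.20, 2.28 and 2.11 in LIP, and these ranges overlapped. The mean log2 difference was 0.17, with 0.28 without Ctrl 1 and 0.08 without Ctrl 2.

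Alpha globin exceeded beta globin in all 6 libraries, on the FPKM scale. The ratio of the alpha to the beta sum was 1.95, 1.68 and 1.72 in Ctrl and 2.27, 1.99 and 1.98 in LIP. The groups did not overlap, though Ctrl 1 came close to LIP 3, and the mean log2 ratio was 0.22 higher in LIP (0.83 ± 0.116 in Ctrl, 1.05 ± 0.112 in LIP, SD). The beta genes were thus somewhat further below their Ctrl level than the alpha genes.

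Hbb-bh3, a pseudogene of the beta cluster, had 335, 499 and 427 counts in Ctrl and 0 counts in each LIP library. In FPKM its Ctrl levels were 21.9, 31.8 and 28.3, and it passed the filter on low values (mean FPKM of at least 1) only through Ctrl. Against a floor of 3 counts per LIP library it was at least 116-fold lower in LIP. Per 1000000 adult beta globin counts, its Ctrl counts came to 128, 164 and 147, a mean of 146 ± 18.3. At that mean ratio the LIP libraries would have held 40.9, 43.5 and 40.5 Hbb-bh3 counts, where none was counted. How the authors' counting treated reads of this pseudogene is not given in the sources used here, and its part in the zeros was not tested.

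Alas2 (ENSMUSG00000025270, chrX:150547375-150570638, plus strand) stood at 315, 418 and 332 FPKM in Ctrl and at 29.1, 31.6 and 32.3 FPKM in LIP. The groups were far apart, with Ctrl 2 the highest library, and the log2 fold change was -3.21 (SE 0.134). Per summed adult globin FPKM, Alas2 had a log2 ratio of -9.16, -8.79 and -9.13 in Ctrl and of -9.43, -9.27 and -9.24 in LIP. The groups did not overlap in this ratio, which was lower in LIP by a mean of 0.28 on the log2 scale, but LIP 3 lay only just below Ctrl 1 and without Ctrl 2 the mean difference was -0.16.

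Bpgm (ENSMUSG00000038871, chr6:34476207-34505613, plus strand) stood at 74.4, 109 and 88.8 FPKM in Ctrl and at 7.40, 6.55 and 8.28 FPKM in LIP. Every LIP library was below every Ctrl library, and the log2 fold change was -3.31 (SE 0.171). Its log2 ratio to adult globin was -11.24, -10.74 and -11.04 in Ctrl and -11.41, -11.54 and -11.20 in LIP. In this ratio LIP 3 lay above Ctrl 1, so that the groups overlapped, with a mean difference of -0.38 that came to -0.24 without Ctrl 2.

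Slc4a1 (ENSMUSG00000006574, chr11:102348824-102365280, minus strand) stood at 7.67, 6.07 and 10.0 FPKM in Ctrl and at 0.326, 0.499 and 0.383 FPKM in LIP. It was the least abundant of the 7 genes detected in both groups and passed the filter only through Ctrl, being under 1 FPKM in each LIP library. It had 2153, 1750 and 2778 counts in Ctrl but 97, 149 and 106 in LIP, a log2 fold change of -3.99 (SE 0.281), or 15.8-fold. Its log2 ratio to adult globin was -14.52, -14.90 and -14.19 in Ctrl and -15.91, -15.25 and -15.63 in LIP. No LIP library reached a Ctrl library in this ratio, and the mean difference was -1.06, against SDs of 0.358 and 0.333.

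**Figure D2:**
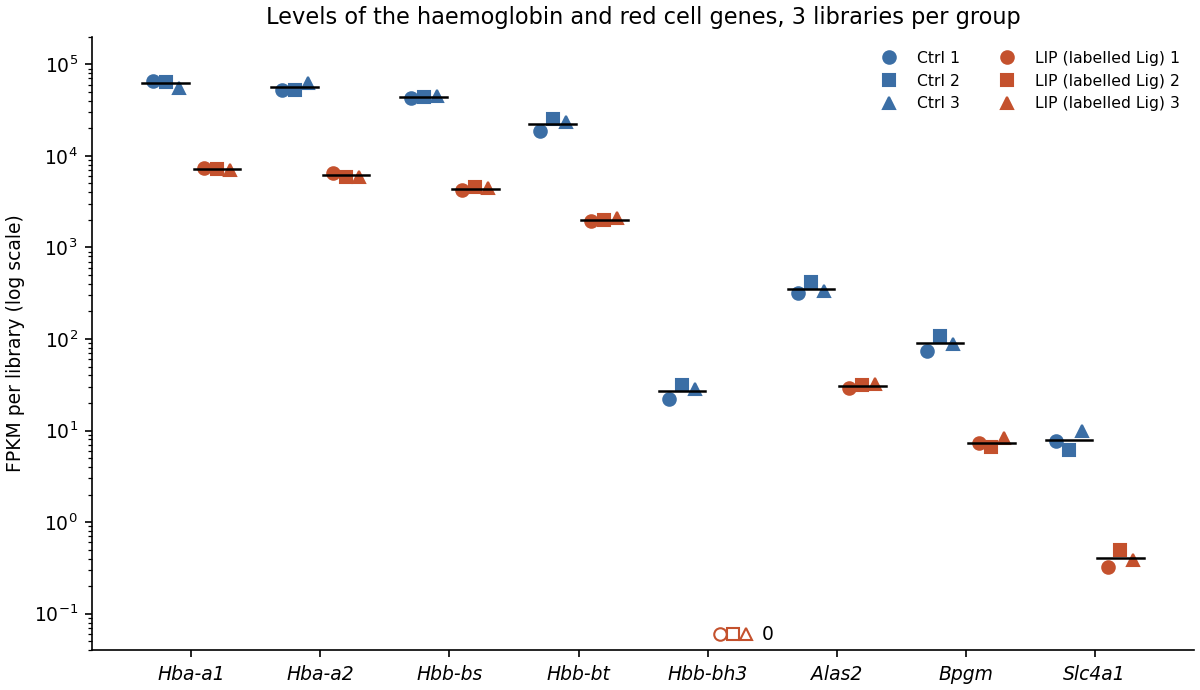
FPKM (log scale) of each of the 8 genes in the 3 Ctrl and 3 LIP libraries, with a bar at each group's mean and open symbols at the foot of the plot for values of 0. In all 8 genes the LIP points lie below the Ctrl points, from Hba-a1 at 55539 to 66227 in Ctrl down to Slc4a1 at 0.326 to 0.499 in LIP.

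For all 8 genes, then, every LIP library lay below every Ctrl library, which was also so for 33.1% of the 10440 genes tested. As the genes were chosen on this contrast, nothing is read from that count. The median log2 fold change of the 8 genes was -3.20, and it stayed at -3.20 with Hbb-bh3 placed at its bound, against -0.09 for all genes tested. The 4 adult globin genes lay between -2.80 and -3.19, with a median of -2.95, and the 3 other coding genes between -3.21 and -3.99. The libraries of 1 group did not deviate in the same way for every gene. In counts, normalised CPM and FPKM, Ctrl 2 was the highest Ctrl library for Hbb-bt, Hbb-bh3, Alas2 and Bpgm but the lowest for Slc4a1.

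**Figure D3:**
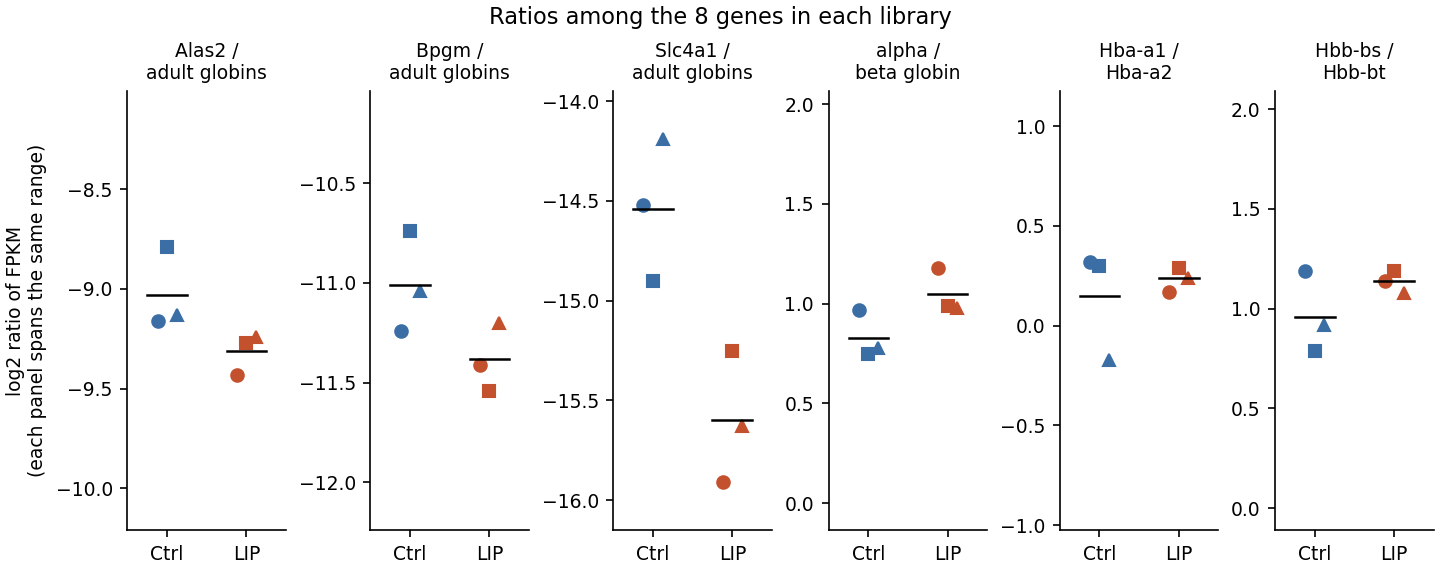
Log2 ratios of FPKM in each library for Alas2, Bpgm and Slc4a1 against the summed adult globin genes, alpha against beta globin, and the copies of each pair, with circles, squares and triangles for replicates 1, 2 and 3, bars at group means and the same span in every panel. Slc4a1 shows the widest gap (mean difference -1.06), alpha against beta and Alas2 separate narrowly, and the other 3 ratios overlap between Ctrl and LIP.

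To place the 8 genes, 75 other genes of red cell biology were listed by role, of which 72 were in the table and 46 passed the filter. Of these 46, 28 were lower in LIP and 11 higher at an adjusted p under 0.05 in edgeR's quasi-likelihood test (Benjamini-Hochberg over all 10440 genes), against 27.2% of all genes tested that were lower and 26.5% that were higher. Their median log2 fold change was -0.96, so that as a group they lay above the 8 genes and below the median of all genes. Some of the 46 passed the filter only through the group in which they were higher, so the counts depend in part on the filter. The directions depended on scaling: with library totals in place of TMM factors 32 were lower and 8 higher, and 40.0% of all genes were lower; with totals that leave out the 8 genes the numbers were 33 and 6, with 49.1% of all genes lower. With libraries scaled on 12 neutrophil marker genes, 41 were lower and 88.8% of all genes were lower. The median of all genes lay at -0.42, -0.63 and -1.95 under these 3 scalings, against -3.53, -3.73 and -5.05 for the 8 genes, each of which stayed below 0.

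Both other globins that could be tested fell. Hbq1b, a theta globin gene of the alpha cluster, had 430, 864 and 709 counts in Ctrl and 45, 50 and 85 in LIP (log2 fold change -3.20, SE 0.432, edgeR adjusted p = 0.000135). Its copy Hbq1a had 259, 280 and 232 counts in Ctrl and 3, 21 and 0 in LIP (-4.74, SE 0.917, adjusted p = 0.00149), and counts may be divided between the copies. Hbq1a passed the filter only through Ctrl, with a mean of 0.211 FPKM in LIP. The embryonic globins Hba-x, Hbb-y and Hbb-bh1 had 8, 53 and 50 counts in Ctrl 1 and 0 in the other 5 libraries, so they were not tested.

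The haem synthesis genes did not move as one. Of 12 genes, 7 fell, 3 rose and 2 did not pass the test, with a median log2 fold change of -0.87. Fech, ferrochelatase, which inserts iron into haem as the last step, was at 14120, 15402 and 11498 counts in Ctrl and 2108, 1837 and 1996 in LIP (log2 fold change -2.52, SE 0.138, edgeR adjusted p = 3.39e-07). Alas1, the housekeeping counterpart of Alas2, went the other way, with 3057, 2632 and 2923 counts in Ctrl and 9935, 9639 and 8723 in LIP (1.98, SE 0.116, adjusted p = 4.82e-07). The housekeeping form of this first enzyme thus rose by 3.95-fold while the erythroid form was 9.27-fold lower, but with neutrophil marker scaling Alas1 was at 0.12 and lost its call (adjusted p = 0.444). Slc25a37, the mitochondrial iron importer mitoferrin, fell by 0.97 on the log2 scale (adjusted p = 0.00245). Tmem14c, a mitochondrial porphyrin transporter, rose by 0.87 (adjusted p = 0.00184), whereas with neutrophil marker scaling it was at -0.97. Urod, a middle enzyme of the pathway, was at -0.42 and missed the threshold (adjusted p = 0.105), and it passed with library totals, at -0.75.

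Both tested iron uptake genes fell, and both passed the filter only through Ctrl. Their LIP means were 0.651 FPKM for Tfrc and 0.451 FPKM for Slc11a2. Tfrc, the transferrin receptor, stood at 1791, 1013 and 1361 counts in Ctrl and 167, 181 and 363 in LIP (log2 fold change -2.27, SE 0.373, edgeR adjusted p = 0.000529). Slc11a2, the iron transporter DMT1, stood at 1013, 849 and 742 counts in Ctrl and 195, 131 and 190 in LIP (-2.06, SE 0.305, adjusted p = 0.000258).

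The membrane and skeleton genes besides Slc4a1 were mostly too low to test. Of 20 genes 7 passed the filter, of which 2 fell, 3 rose and 2 did not pass the test, with a median of -0.19. Epb41, protein 4.1 of the skeleton, fell by 0.95 on the log2 scale (edgeR adjusted p = 0.00629), and Gypc, glycophorin C, was at -0.47 (adjusted p = 0.173). Stom, the membrane protein stomatin, rose by 1.49 (adjusted p = 0.000174) and Mpp1, a palmitoylated scaffold protein, by 1.05 (adjusted p = 2.33e-05), but with neutrophil marker scaling they were at -0.36 and -0.80. The 13 genes below the filter, among them the spectrin Sptb and the anchor protein Ank1, held 1216 to 1313 counts together in each Ctrl library and 247 to 398 in each LIP library.

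Among red cell enzymes, 4 of 7 tested fell, 2 rose and 1 did not pass. Car2, carbonic anhydrase 2, was at 7238, 9872 and 6167 counts in Ctrl and 686, 934 and 1084 in LIP (log2 fold change -2.83, SE 0.226, edgeR adjusted p = 3.25e-06). Prdx2, a peroxiredoxin that is very abundant in red cells, fell by 1.78 (adjusted p = 0.000104), and catalase, Cat, by 0.68 (adjusted p = 0.00888). The median of the list was -0.68. Gpx1, glutathione peroxidase, rose by 0.57 (adjusted p = 0.00071), but was at 0.04 with totals that leave out the 8 genes and at -1.28 with neutrophil marker scaling. Hk1, hexokinase, rose by 0.65 (adjusted p = 0.0322), a call that was lost without Ctrl 2, LIP 2 or LIP 3 (adjusted p = 0.0537, 0.0988 and 0.0959) and with library totals (0.32, adjusted p = 0.262), and that turned to -1.23 with neutrophil marker scaling. Nt5c3, a pyrimidine nucleotidase, was at -0.18 (adjusted p = 0.282).

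All 8 tested genes of reticulocyte maturation fell, with a median of -1.55. Ube2l6, a ubiquitin-conjugating enzyme, stood at 19459, 26221 and 19597 counts in Ctrl and 2920, 2876 and 3152 in LIP (log2 fold change -2.60, SE 0.144, edgeR adjusted p = 3.54e-07). Trim10, a ring finger protein of terminal erythroid differentiation, stood at 1271, 1850 and 1405 counts in Ctrl and 8, 146 and 102 in LIP (-3.87, SE 0.704, adjusted p = 0.00101). Trim10 passed the filter only through Ctrl, with a mean of 0.641 FPKM in LIP. Bnip3l, the mitophagy receptor with which reticulocytes clear mitochondria, and Mkrn1, a ubiquitin ligase, fell by 0.43 (adjusted p = 0.00773) and 0.50 (adjusted p = 0.00118). Side by side, the medians were -1.55 for reticulocyte maturation, -0.87 for haem synthesis and -0.19 for membrane and skeleton, where the difference between lists was not tested.

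Of 8 tested erythroid transcription factors and receptors, 3 fell, 3 rose and 2 did not pass, with a median of -0.19. Lmo2 fell by 1.57 (edgeR adjusted p = 5.24e-05), Ldb1 by 1.14 (adjusted p = 0.000123) and Bcl11a, which silences embryonic globin and also acts in lymphocytes, by 2.16 (adjusted p = 1.25e-05). Bcl11a passed the filter only through Ctrl, with a mean of 0.453 FPKM in LIP. Nfe2, an activator of globin genes that also acts in megakaryocytes, rose by 1.57 (adjusted p = 1.5e-06). Gata1, the master regulator of erythroid cells, which also acts in megakaryocytes and eosinophils, rose by 1.71 (adjusted p = 0.00224) from 204, 115 and 179 counts in Ctrl to 398, 431 and 517 in LIP, and Gata2 rose by 0.94 (adjusted p = 0.00873). With neutrophil marker scaling these 3 were at -0.28, -0.17 and -0.94. Zfpm1, the Gata1 cofactor, was at -0.53 (adjusted p = 0.158). Klf1, an activator of adult beta globin named after its values were seen, had 59, 58 and 19 counts in Ctrl and 0 in each LIP library and was too low to test.

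Of 7 tested genes that bind, break down or export haem and iron, 6 rose in edgeR's test and 1 did not pass, with a median of 1.46. Over all genes tested, 26.5% rose. Hp, haptoglobin, which binds free haemoglobin and is stored in neutrophil granules, rose by 2.01 on the log2 scale (SE 0.0994, adjusted p = 2.15e-07). The ferritin chains Fth1 and Ftl1 rose by 1.46 (adjusted p = 5.55e-08) and 1.07 (adjusted p = 4.86e-06), and Slc40a1, the iron exporter ferroportin, by 1.79 (adjusted p = 1.7e-05). Blvra, biliverdin reductase, was at -0.06 (adjusted p = 0.885). With neutrophil marker scaling 4 of the 7 were called lower. Under that scaling Fth1 was at -0.40, Ftl1 at -0.78, Slc40a1 at -0.09 and Hp at 0.15, and Hp lost its call. Among the genes named from these lists, Epb41, Mpp1, Prdx2, Mkrn1, Lmo2, Ldb1 and Ftl1 overlap another gene of at least 1 FPKM, so their counts are uncertain.

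**Figure D4:**
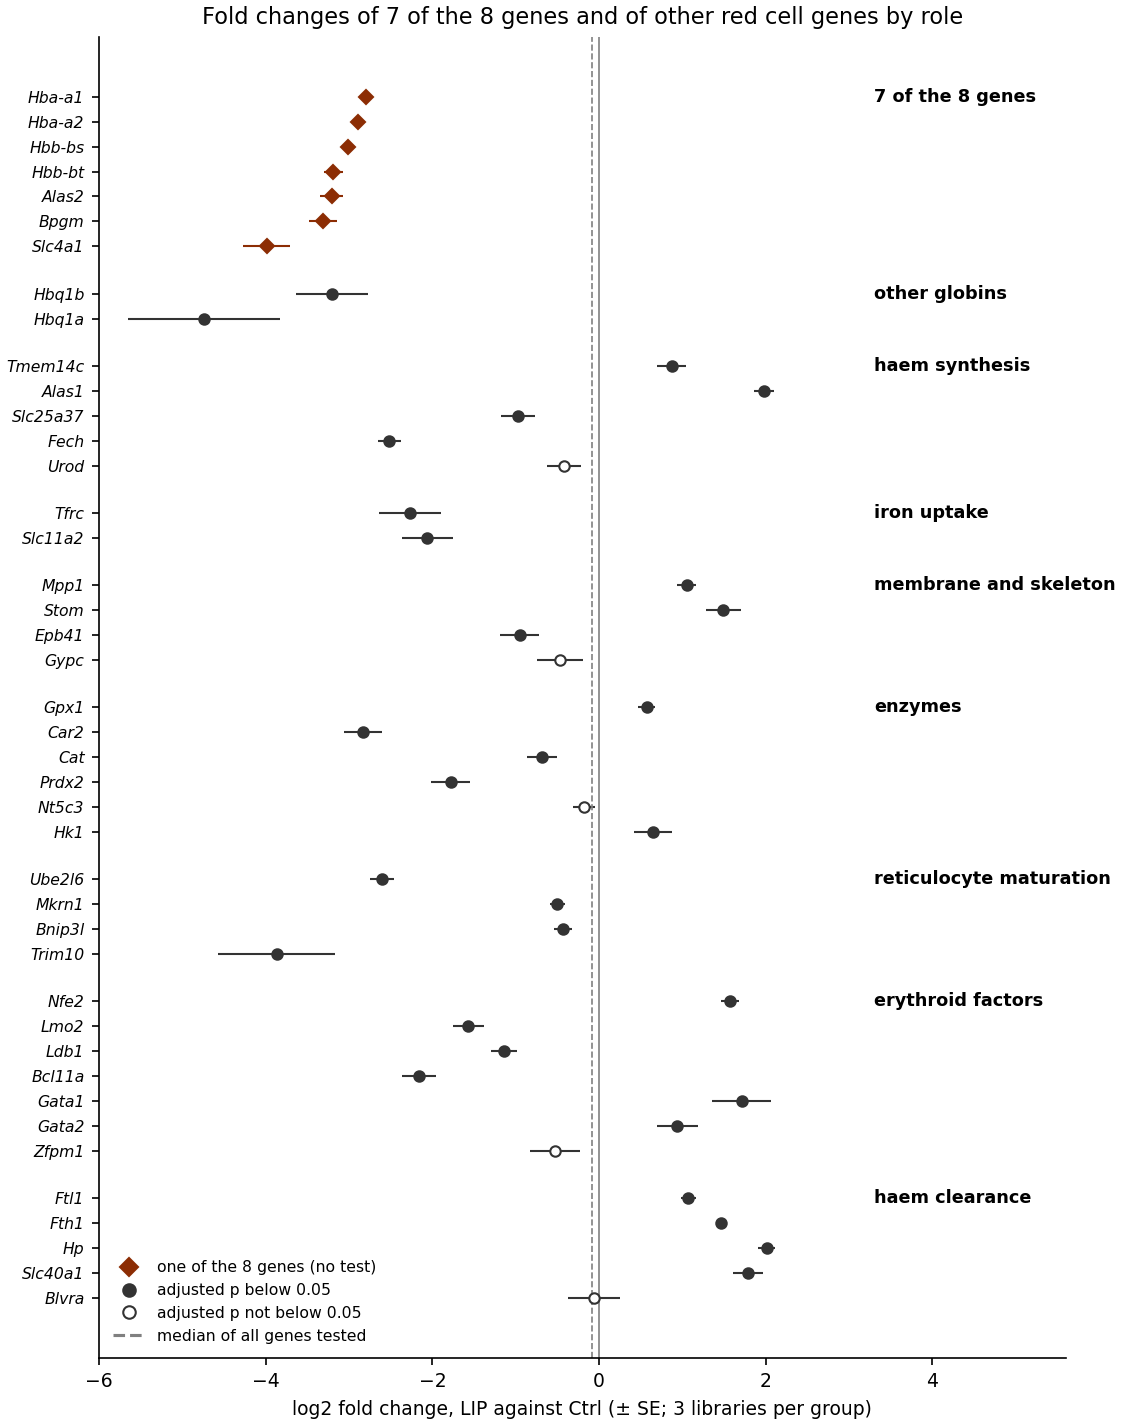
Log2 fold change in LIP against Ctrl (edgeR with TMM, bars ± SE, 3 libraries per group) for 7 of the 8 genes and for named genes of the other red cell lists, with filled circles for an adjusted p under 0.05 and a dashed line at the median of all genes, -0.09. The 7 genes lie between -2.80 and -3.99 and the reticulocyte maturation genes below 0, whereas haem synthesis, membrane, enzyme and factor genes lie on both sides and most clearance genes above 0, and with neutrophil marker scaling 11 of the named genes above 0 lie below 0.

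Levels of other blood cell genes moved between the groups as well, where 27.2% of all genes tested fell and 26.5% rose. The 12 neutrophil markers all rose, their summed normalised CPM running from 12925 to 15045 in Ctrl and from 49440 to 53252 in LIP, with S100a9 (2.03 on the log2 scale, edgeR adjusted p = 8.55e-08), S100a8 (1.95, adjusted p = 2.31e-07) and Retnlg (2.11, adjusted p = 2.58e-07) the most abundant in FPKM. All 12 B cell markers fell, from 18487 to 20543 in Ctrl to 3850 to 3879 in LIP, with Cd74 (-2.27, adjusted p = 1.36e-08), Ighm (-2.15, adjusted p = 5.31e-08) and Cd79a (-2.63, adjusted p = 5.92e-08) the most abundant in FPKM. All 12 T cell markers fell, from 695 to 750 down to 174 to 214, with Lck, Trac and Lat the most abundant in FPKM. Some of the 12 passed the filter only through Ctrl. All 12 platelet markers rose, from 1205 to 1428 up to 3003 to 3629, with Ppbp, Pf4 and Gp9 the most abundant in FPKM. Of 6 erythroid markers apart from the 8 genes, 2 could be tested, of which 1 fell and 1, Gata1, rose. Summed over the 6, normalised CPM ran from 54.8 to 63.2 in Ctrl and from 13.7 to 17.7 in LIP. Most of the Ctrl sum came from 1 of the 6, so the sum does not speak for each marker. Gata1 stood at 3.43, 1.94 and 3.1 CPM in Ctrl and at 8.01, 8.55 and 11.1 CPM in LIP. Of the 6 markers, Klf1 and Rhag, named for their zeros, were at 0 in each LIP library. Both were low in Ctrl too, with 59, 58 and 19 counts for Klf1 and 0, 47 and 52 for Rhag. Of 7 natural killer cell markers 3 rose and 4 did not pass, among them the most abundant, Nkg7, Gzma and Prf1. With library totals 1 of the 7 fell and 0 rose, where 40% of all genes were lower. With totals that leave out the 8 genes 3 fell and 0 rose, where 49.1% of all genes were lower. Of 7 tested monocyte and macrophage markers 6 rose, including Csf1r and Adgre1, and Ly86 fell. Of 4 tested eosinophil and basophil markers Siglecf rose, and Mcpt8 and Fcer1a, next in abundance, did not pass. With neutrophil marker scaling the B cell and T cell lists stayed lower, with medians of -4.39 and -4.19, while the platelet and monocyte lists turned to medians of -0.63 and -0.73. The natural killer cell list turned to a median of -1.65 under that scaling, with all 7 markers called lower, as were 88.8% of all genes. Neutrophil markers took 1.559% ± 0.0977 of counts in Ctrl, where the 8 red cell genes took 14.98%, and 4.513% ± 0.151 in LIP. The part of these other cells in the globin difference was not tested.

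**Figure D5:**
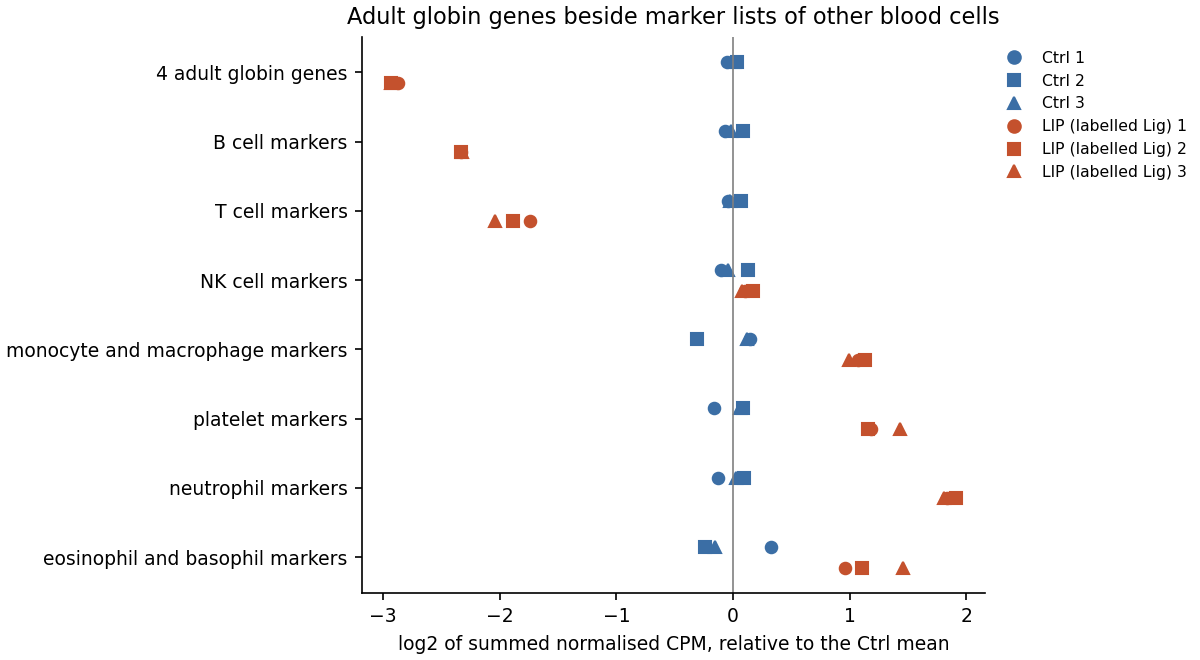
Summed normalised CPM of the 4 adult globin genes and of marker lists of blood cells in each library, as log2 values relative to the Ctrl mean, with Ctrl and LIP in separate colours. B cell and T cell markers lie to the left in LIP along with the globin genes, and platelet, monocyte, eosinophil and basophil, and neutrophil markers to the right. With neutrophil marker scaling the natural killer cell, platelet, monocyte, and eosinophil and basophil medians in LIP turn below 0.

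The genes whose log2 profile over the 6 libraries was nearest to the mean profile of the 8 genes were sought among the other 10432 tested genes, by Euclidean distance. They were Apol11b (distance 0.386), Fcmr (0.388), Ighv5-17 (0.417), Gm8369 (0.421) and Ccr7 (0.454). Fcmr, the Fc receptor for IgM, stood at 650, 778 and 639 CPM in Ctrl and at 97.9, 95.1 and 91.5 CPM in LIP. Ccr7, the chemokine receptor that guides lymphocytes and dendritic cells to lymph nodes, stood at 748, 900 and 715 CPM in Ctrl and at 89.6, 108 and 121 CPM in LIP. Ighv5-17 is a variable segment of the immunoglobulin heavy chain. With 2 groups that lie this far apart, the distance reflects mostly the size of the difference between them.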

How the data were processed

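The authors deposited raw read counts and FPKM values per gene for 6 libraries, 3 Ctrl and 3 LIP, in a table with GRCm38 coordinates. Per the submitters' processing notes, reads were trimmed with cutadapt 1.9 and checked with FastQC. The aligner, the counting tool and the use of strand are not given in the sources used here, and the library kit does not mark strand. FPKM values, deposited by the authors, are the counts divided by gene length and by a library total, so they were used for levels between genes.

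Each library's group and number come from its label. The 8 genes, the gene lists and the tests were chosen with earlier results of these data known, and no p-value is given for the 8 genes. Genes reaching 1 FPKM on average (10440 of 29097) were fitted on their counts with edgeR 4.0.16 in R 4.3.3 (quasi-likelihood test, TMM normalization, group as the only term), with Benjamini-Hochberg adjustment over all of them. A standard error is the size of the log2 fold change over the square root of its F statistic. CPM values are TMM-normalized. Where a gene name stood on several rows (50 names), the more abundant row in FPKM stood for the name. Of each list, the text names all tested genes where at most 3 were tested, and otherwise the 3 most abundant, the 2 with the largest change and up to 3 that were not called or went against their list, as well as the 3 most abundant markers of each cell type and the 5 genes with the most similar profile (log2(CPM + 1), centred per gene). The listed genes Ahsp, Hbb-bh2 and Pklr were not analysed here, and some results for single genes are left out.

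Each library is a pool of 5 mice, so p-values measure the spread between pools. Total counts of 52186555 to 57262379 per library leave little counting error in the globin genes. A floor of 3 counts was used for values of 0 and covers counting error only, since PCR copies are counted as reads. Alternatives were median-of-ratios factors, library totals with and without the 8 genes, scaling on neutrophil markers, other filters, a replicate block, DESeq2 1.42.0, limma 3.58.1 on log2(FPKM + 1) and log2(FPKM + 0.1), and leaving out each library. Promoters were taken from RefSeq (GRCm38.p6) and transcripts from GENCODE M21.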

Additional observations from a re-analysis of the deposited data

How the results depend on the processing

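The 8 genes stayed below 0 in all 127 of their values over 16 alternatives. Their median of -3.20 moved to -3.53 with library totals, -3.73 with totals that leave out the 8 genes, -5.05 with neutrophil marker scaling and -3.49 with limma on log2(FPKM + 0.1). As a share of summed FPKM in place of counts, they took 34.2% in Ctrl and 4.61% in LIP. The count of other red cell genes that rose, 11, came to 6 with totals that leave out the 8 genes, 7 with a filter at 5 FPKM and 0 with neutrophil marker scaling (edgeR, 0 also at an unadjusted p under 0.05). Of the 7 tested clearance genes, 6 were called higher in the main fit, whereas 4 were called lower and 0 higher with neutrophil marker scaling. The 4 need not all be among the 6. Of 567 values of 36 named genes under the alternatives, 515 kept their call, 17 lost it, 24 gained one and 11 changed sign, all 11 with neutrophil marker scaling: Tmem14c -0.97, Mpp1 -0.80, Stom -0.36, Gpx1 -1.28, Hk1 -1.23, Nfe2 -0.28, Gata1 -0.17, Gata2 -0.94, Ftl1 -0.78, Fth1 -0.40 and Slc40a1 -0.09. That scaling holds the summed counts of the 12 neutrophil markers level by construction and so lowers all genes alike against TMM. Single markers were not held level, as 3 of the 12 were called lower and 4 higher. S100a8 and S100a9 were the largest parts of that sum, with mean CPMs of 18362 and 14889 in LIP. The 17 lost calls were those of Alas1 (0.12) and Hp (0.15) with neutrophil marker scaling, of Tmem14c (0.34), Gpx1 (0.04), Hk1 (0.12) and Gata2 (0.40) with totals that leave out the 8 genes, of Gata2 (0.61) and Hk1 (0.32) with library totals and with limma at both pseudocounts, and of Hk1 with no filter, with the filter at 5 FPKM and without Ctrl 2, LIP 2 or LIP 3. Leaving out each library in turn left 26 to 28 genes lower and 9 to 11 higher, and of the named genes Hk1 lost its call. With no filter 28 were lower and 9 higher. The share of all genes lower was then 7.51%, but it was taken over every gene with any count. It therefore cannot be set beside the 27.2% of the main fit.

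Same-numbered libraries of Ctrl and LIP come from different mice, and their deviations from the group means were correlated at 0.021, 0.0562 and 0.0363, so the numbers do not pair them. A fit with the replicate number as a block gave 28 lower and 11 higher and changed no call of a named gene. Each LIP library correlated best with the Ctrl library of its number, but Ctrl 1 correlated best with LIP 3 (0.0217). Depth limits Slc4a1 and Hbb-bh3 most, with 97 to 149 and 0 counts in LIP, and says little of the 13 membrane genes below the filter.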
